A study of Mus musculus with 92 samples.

Results

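The Toll-like receptors described here are Tlr1, Tlr2, Tlr3, Tlr4, Tlr5, Tlr7, Tlr8, Tlr9 and Tlr13, taken as the entries of the deposited expression table whose gene symbol equals one of these names. They are 9 of 29956 named genes. The table holds 3 further family genes, Tlr6, Tlr11 and Tlr12. Tlr1 and Tlr6 are close paralogs that lie next to each other on chromosome 5, so reads may have been shared between them in an unknown proportion, and Tlr7 and Tlr8 are neighbours on chromosome X.

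The study asked how far cells grown from conditionally immortalised myeloid progenitors, called ER-Hoxb8 cells, resemble macrophages and microglia, and what the loss of the RNA-editing enzyme ADAR1 does to them. Bulk RNA sequencing gave 92 libraries in 25 groups. Values are log2 CPM (counts scaled to a common library size), normalised by the authors in 6 separate sets, and comparisons were made within a set.

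BM progenitors (lineage-depleted marrow), BM monocytes (enriched on a column) and BMD macrophages (marrow grown for 7 days in M-CSF) came from wild-type FVB mice, with 3 libraries a group. ER-Hoxb8 progenitors came from Cas9-bearing FVB mice and carry an estrogen-dependent Hoxb8 fusion that holds them in an immature state while estradiol and GM-CSF are present. They were taken as they grew, after 4 days (ER-Hoxb8 day 4 cells) and after 7 days in M-CSF without estradiol (ER-Hoxb8 macrophages), with 3 libraries each from 3 lines. BMD MLCs and ER-Hoxb8 MLCs, for microglia-like cells, are marrow or ER-Hoxb8 cells injected into the brain of Csf1r-/- pups and sorted back out as CD45+ CD11b+ cells, with 6 libraries each. The labels do not give the donor genotype of the injected cells, and the study's transplant figure shows GFP+ donors. Against the cultured cells, brain residence and a difference of donor or line cannot be told apart. The host lacks microglia of its own, but CD45 and CD11b do not separate microglia-like cells from other myeloid cells, whether of the graft or of the host. The study's gating legend also names GFP, and the labels do not say whether every library was sorted on it. The 9 microglia libraries came from wild-type FVB brain with no injection. Library names divide the ER-Hoxb8 MLCs into GFPHox (replicates 1 to 3) and WTHox with the suffix Lo (replicates 4 to 6), mark microglia replicates 8 and 9 as YSWT and give BMD macrophages replicate 3 as wBM and the other 2 as Mac, and the labels do not say what these names stand for. Adar1 KO and NTC (non-targeting control) cells are ER-Hoxb8 cells that all carry Cas9 and a guide, either sgRNA 1 or sgRNA 2 against Adar or a control guide. The titles of their progenitor libraries give the Cas9 genotype as heterozygous. The study describes the replicates of its baricitinib cultures as independently differentiated and names no separate lines within a guide. Spread between replicates of a guide may thus be that of cultures of the same line. Loss of ADAR1 and a difference between lines cannot then be told apart. They were sequenced as progenitors and as macrophages after 7 days, and NTC and sgRNA 1 macrophages were also grown with the JAK1 and JAK2 inhibitor baricitinib at 0, 0.0006, 0.016, 0.4 or 10 uM. The treatment protocol and the study's methods and figure legend give 0.16 uM where the sample titles give 0.016 uM. Which was used is not known, and this dose is named here by its title. The labels give no age.

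Depth, recovered from the smallest steps between values, was 33.1 to 52.2 M counts (M for mega) in the marrow and early ER-Hoxb8 libraries. It was 10.4 to 35.8 M in the cultured macrophages and the cells from brain, and 22.5 to 34.3 M in the sgRNA 1 and NTC libraries, except 19.96 M in NTC macrophages replicate 2. The sgRNA 2 libraries held 17.1 to 28.5 M counts and the baricitinib libraries 6.17 to 32.6 M. A level at or below 3 counts in a library is treated as not detectable at that depth, a limit that covers counting error alone. In bulk RNA, fewer cells of a type and less RNA per cell cannot be told apart.

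Toll-like receptors recognise molecules of microbes and of damaged cells and pass the signal through the adaptors MyD88 and TRIF to NF-kB and interferon regulatory factors. Tlr1, Tlr2, Tlr4 and Tlr5 act mainly at the cell surface on lipopeptides, lipopolysaccharide and flagellin, while Tlr3, Tlr7, Tlr8, Tlr9 and Tlr13 sit in endosomes, need the chaperone Unc93b1 to get there, and bind double-stranded RNA, single-stranded RNA, CpG DNA or bacterial ribosomal RNA.

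The promoter windows that hold a match to a searched motif are shown with their matches. The promoter table used holds RefSeq windows of 250 bases before to 50 after the gene start (build GRCm38.p6) for 7 of the 9 receptors (none for Tlr4 and Tlr7), as 8 windows, and 5 of the windows are printed 5' to 3' along the gene's strand. Both strands were searched for 4 motifs, and capitals mark every match. GAAANNGAA, an interferon-response-like motif, is present in 8.56% of the 32851 windows of that length, and TTCNNNGAA, a GAS-like motif (gamma-activated sequence) that reads the same on both strands, is present in 8.3%. GAGGAAGT, a PU.1-like motif, is present in 3.2% and GGGNNTTCC, an NF-kB-like motif, in 5.82%. Tlr1 has 2 windows at chr5:64933509-64933808 and chr5:64932650-64932949 (both minus strand) with 1 PU.1-like match in the first and 1 GAS-like match in the second. Tlr2 at chr3:83841559-83841858 (minus strand) holds 2 overlapping NF-kB-like matches, printed as 1 run of capitals. Tlr8 at chrX:167264280-167264579 (minus strand) holds 1 GAS-like and 1 interferon-response-like match, in that order, and Tlr9 at chr9:106222348-106222647 (plus strand) holds 1 PU.1-like match on the opposite strand. The windows of Tlr3, Tlr5 and Tlr13 hold no match to these letters. A match describes the letters of the window and is not a shown binding site.
Tlr1 window 1: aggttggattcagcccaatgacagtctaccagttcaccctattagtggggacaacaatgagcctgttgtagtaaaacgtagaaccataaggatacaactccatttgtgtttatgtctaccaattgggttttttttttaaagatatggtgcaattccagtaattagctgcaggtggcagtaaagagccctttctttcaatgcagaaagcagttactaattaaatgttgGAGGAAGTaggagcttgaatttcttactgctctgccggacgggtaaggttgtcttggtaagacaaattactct
Tlr1 window 2: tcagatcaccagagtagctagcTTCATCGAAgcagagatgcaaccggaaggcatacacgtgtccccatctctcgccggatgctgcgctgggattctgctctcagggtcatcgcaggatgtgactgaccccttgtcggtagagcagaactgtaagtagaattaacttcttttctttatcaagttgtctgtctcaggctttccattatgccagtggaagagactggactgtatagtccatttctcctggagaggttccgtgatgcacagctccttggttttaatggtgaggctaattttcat
Tlr2: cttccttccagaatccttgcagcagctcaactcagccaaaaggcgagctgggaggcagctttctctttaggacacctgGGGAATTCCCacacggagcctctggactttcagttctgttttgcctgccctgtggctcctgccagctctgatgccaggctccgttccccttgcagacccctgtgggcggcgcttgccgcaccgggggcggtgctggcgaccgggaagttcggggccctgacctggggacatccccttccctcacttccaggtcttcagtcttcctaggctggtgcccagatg
Tlr8: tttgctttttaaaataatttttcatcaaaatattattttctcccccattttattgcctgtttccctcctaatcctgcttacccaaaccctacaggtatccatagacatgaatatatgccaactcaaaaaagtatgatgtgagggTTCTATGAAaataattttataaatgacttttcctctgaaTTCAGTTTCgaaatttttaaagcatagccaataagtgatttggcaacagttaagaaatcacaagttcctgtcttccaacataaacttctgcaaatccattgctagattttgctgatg
Tlr9: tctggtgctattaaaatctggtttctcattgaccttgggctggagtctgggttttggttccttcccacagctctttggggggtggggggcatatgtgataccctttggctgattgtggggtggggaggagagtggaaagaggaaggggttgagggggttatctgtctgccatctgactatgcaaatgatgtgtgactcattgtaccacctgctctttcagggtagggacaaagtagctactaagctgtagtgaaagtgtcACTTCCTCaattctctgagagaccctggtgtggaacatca

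Marrow and early ER-Hoxb8 cells differed in which receptors they carried. All 9 receptors passed the filter on low values here (CPM above 1 in at least 3 libraries). Tlr1, which pairs with Tlr2 on lipopeptides, read 0.85, -0.76 and 1.40 log2 CPM in the BM progenitors, 3.29, 3.42 and 2.94 in the BM monocytes, 0.09, 2.43 and -2.25 in the ER-Hoxb8 progenitors and 2.25, 2.17 and 2.33 in the ER-Hoxb8 day 4 cells. Monocytes stood highest, day 4 cells next, and the BM progenitors below both, while the ER-Hoxb8 progenitors spread from under the BM progenitors to just above the day 4 cells. Tlr2 read 3.00, 3.77 and 3.22 in the BM progenitors, 6.45, 6.28 and 5.90 in the BM monocytes, 6.52, 7.27 and 4.94 in the ER-Hoxb8 progenitors and 5.38, 7.33 and 6.63 in the day 4 cells. The BM progenitors thus lay below the other groups, which overlapped. Tlr4, the lipopolysaccharide receptor, read 2.16, 3.45 and 3.62 in the BM progenitors, 4.97, 5.03 and 4.59 in the BM monocytes, 9.13, 7.73 and 7.72 in the ER-Hoxb8 progenitors and 8.18, 7.63 and 7.73 in the day 4 cells. Here the ER-Hoxb8 groups overlapped each other and lay above both marrow groups. Tlr5, the flagellin receptor, read -2.83, -0.11 and -2.95 in the BM progenitors, 2.70, 1.85 and 1.86 in the BM monocytes, -4.34, 0.35 and -4.34 in the ER-Hoxb8 progenitors and -2.82, -1.02 and 0.43 in the day 4 cells. The monocytes stood above all libraries of the other groups, which overlapped.

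The endosomal receptors spread widely among the ER-Hoxb8 progenitor libraries. Tlr3, the receptor of double-stranded RNA, read -3.16, -4.34 and -1.55 log2 CPM in the BM progenitors, -2.32, 0.19 and -4.34 in the BM monocytes, 0.23, 2.28 and -0.98 in the ER-Hoxb8 progenitors and 1.97, 2.08 and 1.92 in the day 4 cells. Neighbours in that order overlapped, with the ER-Hoxb8 groups highest. Tlr7, a receptor of single-stranded RNA, read 2.53, 3.12 and 2.52 in the BM progenitors, 5.32, 5.08 and 4.64 in the BM monocytes, 5.37, 7.11 and 1.82 in the ER-Hoxb8 progenitors and 7.70, 7.25 and 6.65 in the day 4 cells. Tlr8, a relative of Tlr7, read 0.85, 0.95 and 1.39 in the BM progenitors, 5.66, 5.39 and 5.23 in the BM monocytes, 0.04, 5.68 and -0.49 in the ER-Hoxb8 progenitors and 5.77, 5.86 and 5.01 in the day 4 cells. Replicate 2 of the ER-Hoxb8 progenitors read like a monocyte or day 4 library for Tlr8, and the other 2 read at or below the BM progenitors. Tlr9, the CpG DNA receptor, read 0.69, 2.66 and 2.06 in the BM progenitors, 3.69, 3.27 and 2.57 in the BM monocytes, -3.66, 4.33 and -2.57 in the ER-Hoxb8 progenitors and 3.61, 4.20 and 2.42 in the day 4 cells. Tlr13, which binds bacterial ribosomal RNA, read 2.85, 4.24 and 3.38 in the BM progenitors, 7.55, 7.73 and 7.32 in the BM monocytes, 5.21, 8.31 and 2.63 in the ER-Hoxb8 progenitors and 8.63, 8.48 and 8.10 in the day 4 cells. For Tlr7 and Tlr13 the day 4 cells stood above both marrow groups, and the ER-Hoxb8 progenitors reached from below or among the BM progenitors into the day 4 range.

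**Figure D1:**
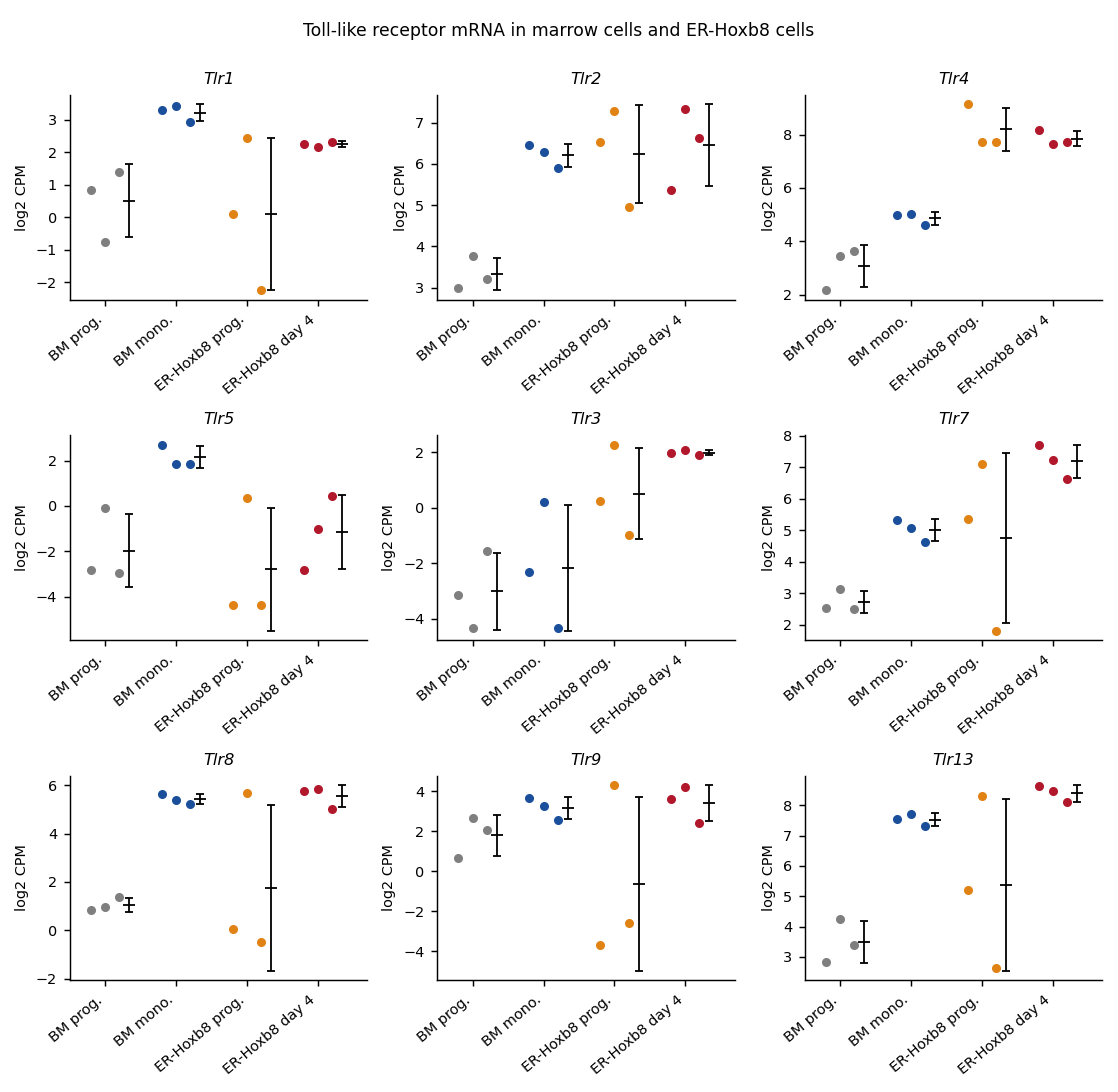
Levels of the 9 receptors (log2 CPM, vertical axis) in each library of the BM progenitors, BM monocytes, ER-Hoxb8 progenitors and ER-Hoxb8 day 4 cells, with points for libraries and bars for the mean and SD of 3 libraries. The ER-Hoxb8 progenitor libraries spread from -0.49 to 5.68 for Tlr8 and from 2.63 to 8.31 for Tlr13.

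The ER-Hoxb8 progenitor libraries also differed from each other in marker genes. Progenitor markers (5 genes, with Kit, Cd34 and Mpo the most abundant in replicates 1, 2 and 3) summed to 62.0, 25.9 and 2443 CPM in the 3 libraries, against 5397 to 11170 CPM in the BM progenitors. Macrophage markers (6 genes, with Cd68, Cd68 and Emr1 the most abundant) summed to 2096, 5528 and 453 CPM, against 140 to 228 CPM in the BM progenitors. The progenitor sum was thus highest in replicate 3 and the macrophage sum in replicate 2, the library in which every receptor except Tlr4 was highest as well. Replicate 2 read close to day 4 cells replicate 2 for macrophage markers (5528 and 5623 CPM). The same held for border-macrophage (2264 and 2237 CPM) and classical monocyte markers (800 and 841 CPM). Progenitor (25.9 and 35.5 CPM) and neutrophil markers (38.4 and 55.7 CPM) were less alike. What sets this library apart was not tested.

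BM monocytes carried more Tlr2, Tlr4, Tlr8 and Tlr13 mRNA than BM progenitors. These 4 of 9 receptors rose, where 13.8% of all genes tested passed in either direction, and the median log2 fold change over the 9 receptors was 2.72 beside -0.09 over all genes. Tlr8 was 20.9-fold and Tlr13 15.4-fold higher, and the lipopeptide receptor Tlr2 was 7.3-fold higher. Among the partners, Ly96 (the MD-2 subunit of the Tlr4 complex; log2 fold change 3.11, adjusted p = 0.00824), Myd88 (1.25, adjusted p = 0.00221) and Irf5, a transcription factor downstream of the receptors (2.96, adjusted p = 0.0453), rose in 3 of 3 monocyte libraries. Tlr2 was higher in 3 of 3 monocyte libraries (log2 fold change 2.88, SE 0.58, adjusted p = 0.00868). For Tlr4 the log2 fold change was 1.79 (SE 0.44, adjusted p = 0.0224), again higher in 3 of 3. Tlr8 (4.36, SE 1.21, adjusted p = 0.0351) and Tlr13 (4.04, SE 1.02, adjusted p = 0.0245) were likewise higher in 3 of 3. Tlr5 (4.10, adjusted p = 0.0567) and Tlr1 (2.72, adjusted p = 0.0761) lay above the progenitors in 3 of 3 libraries and missed the threshold. With a replicate block Tlr5 passed. Tlr6 passed, with a log2 fold change of 2.16 (adjusted p = 0.016). Of the 54 genes of the pathway list, 51 were tested, 10 rose and 0 fell (median 0.92 over the list), and of 12 interferon-stimulated genes 2 rose. Macrophage markers went in the same direction as the receptors, with 1 of 6 genes passing and sums of 1346 to 1622 CPM in the monocytes (Csf1r the most abundant by group mean), and progenitor markers remained abundant in the monocytes, with sums of 4176 to 5280 CPM. Classical monocyte markers (3 genes) summed to 387 to 743 CPM in the progenitors and 3495 to 4024 CPM in the monocytes. In that order border-macrophage markers (6 genes) summed to 671 to 825 and 5944 to 8910 CPM. B cell markers summed to 128 to 849 and 56.8 to 75.9 CPM, and plasmacytoid dendritic cell markers to 131 to 332 and 17.2 to 19.4 CPM. Dissociation genes summed to 32.5 to 307 and 57.5 to 2014 CPM. The part of these markers in the result was not tested.

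Leaving out single libraries changed the monocyte calls, and the cause was not tested. Without replicate 2 of the ER-Hoxb8 progenitors, a choice made after seeing the data, 7 receptors passed (beside 21.6% of all genes), the added ones being Tlr1, Tlr5 and Tlr7 (log2 fold change 2.72, 4.10 and 2.29). The Tlr8 call ended without any 1 of the 6 libraries compared (4.26, 4.31 and 4.53 without BM progenitors replicates 1, 2 and 3, and 4.25, 4.38 and 4.46 without BM monocytes replicates 1, 2 and 3, adjusted p up to 0.12), and the Tlr13 call ended in 5 of these fits (3.72 and 3.99 without BM progenitors replicates 1 and 3, and 4.04, 3.94 and 4.15 without BM monocytes replicates 1, 2 and 3, adjusted p up to 0.106). The Tlr4 call ended without BM progenitors replicate 1 (1.33) and BM monocytes replicates 1 (1.73) and 2 (1.71), with an adjusted p of up to 0.0958.

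ER-Hoxb8 progenitors carried far more Tlr4 than BM progenitors, by 35.8-fold, and more Tlr2, by 9-fold. Tlr3 was higher as well, with no CPM fold given since 2 of 3 BM progenitor libraries were at or below 3 counts. These 3 of 9 receptors rose, beside 25.5% of all genes, with a median log2 fold change of 1.90 over the receptors tested and -0.08 over all genes. Cd14, the co-receptor that hands lipopolysaccharide to Tlr4, rose as well (log2 fold change 6.46, adjusted p = 8.87e-05, 3 of 3 libraries), as did Ly96 (2.37, adjusted p = 0.0153) and Myd88 (1.15, adjusted p = 0.000847), while Ly86, the MD-1 partner of Cd180, fell (-6.80, adjusted p = 1.13e-06). Tlr4 was higher in 3 of 3 libraries (log2 fold change 5.12, SE 0.44, adjusted p = 7.94e-06), and Tlr2 likewise (2.92, SE 0.58, adjusted p = 0.00328). Tlr3 was also higher in 3 of 3 (3.53, SE 1.15, adjusted p = 0.0426), a fitted value that depends on the BM progenitor libraries at or below 3 counts. Of 51 pathway genes 9 rose and 3 fell (median 0.50), and in the interferon list 1 rose and 2 fell of 12. Tlr12, detected in the BM progenitors (0.12 to 1.43 log2 CPM), was at its lowest value in all 3 ER-Hoxb8 progenitor libraries, at least 21.6-fold lower (adjusted p = 0.00167). Of 5 progenitor markers 4 fell, of 6 macrophage markers 3 rose, of 7 neutrophil markers 7 fell and of 5 B cell markers 5 fell, and their part in the receptor result was not tested.

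The Tlr3 call ended without BM progenitors replicate 1 (log2 fold change 3.46) or 2 (2.86), or ER-Hoxb8 progenitors replicate 1 (3.67) or 2 (2.64), with an adjusted p of up to 0.153. Without ER-Hoxb8 progenitors replicate 2, Tlr8 (-1.29) and Tlr9 (-4.92) passed as lower, and without replicate 3, Tlr7 (3.51) and Tlr13 (3.27) passed as higher, with Tlr2 at 3.57 and Tlr3 at 4.27.

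The step from ER-Hoxb8 progenitors to day 4 cells gave 0 of 9 receptors past the limma threshold, where 0% of all genes passed, with a median log2 fold change of 2.16 over the receptors tested and -0.01 over all genes. At an unadjusted p below 0.05 there were 1129 genes, among them 5 receptors. Libraries with equal replicate numbers had correlated residuals in this step (r 0.226 to 0.427). Within these pairs Tlr7, Tlr8 and Tlr13 read higher at day 4 every time, and the other receptors did not. A replicate block changed no receptor call here. Without ER-Hoxb8 progenitors replicate 2, the library highest for every receptor except Tlr4, 5 receptors rose, beside 11.1% of all genes: Tlr1 (log2 fold change 3.33), Tlr7 (3.60), Tlr8 (5.78), Tlr9 (6.53) and Tlr13 (4.48). In that library each of these already read within or near the range of the day 4 cells. The pathway list (0 of 51 passing, median 0.15) and the interferon list (0 of 12) held no call.

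Cultured macrophages, cells re-isolated from brain and microglia all carried Tlr4, Tlr7 and Tlr13, while Tlr5 and Tlr8 were at or below 3 counts in some libraries. All 9 receptors passed the filter here (CPM above 1 in at least 6 of 27 libraries). Tlr1 read 4.62, 4.00 and 2.33 log2 CPM in the BMD macrophages and 2.67, 2.99 and 2.4 in the ER-Hoxb8 macrophages, with lowest, median and highest values of 5.88, 6.51 and 6.87 in the BMD MLCs, 5.65, 5.98 and 6.34 in the ER-Hoxb8 MLCs and 4.85, 5.10 and 5.55 in the microglia. The MLC groups overlapped at the top, microglia came next and the cultured macrophages were lowest, with gaps between these 3 tiers. Tlr2 read 7.12, 6.27 and 7.23 in the BMD macrophages and 5.86, 6.75 and 2.18 in the ER-Hoxb8 macrophages, and 7.30, 8.25 and 8.43 in the BMD MLCs, 6.64, 7.74 and 9.12 in the ER-Hoxb8 MLCs and 4.80, 6.18 and 7.07 in the microglia as lowest, median and highest. Each neighbour in that order of means (BMD MLCs, ER-Hoxb8 MLCs, BMD macrophages, microglia, ER-Hoxb8 macrophages) overlapped the next. Tlr4 read 7.36, 7.27 and 7.62 in the BMD macrophages and 8.10, 7.71 and 6.33 in the ER-Hoxb8 macrophages, and ran from 6.30 to 7.27 (median 7.08) in the BMD MLCs, 4.72 to 7.83 (median 6.60) in the ER-Hoxb8 MLCs and 5.89 to 7.28 (median 7.07) in the microglia. The cultured macrophages had the highest Tlr4 means, and again neighbours overlapped. Tlr5 read -1.84, -3.17 and 1.47 in the BMD macrophages and -0.28, -1.44 and -3.62 in the ER-Hoxb8 macrophages, and 1.90, 3.17 and 3.66 in the BMD MLCs, -3.19, -2.51 and 1.22 in the ER-Hoxb8 MLCs and 2.05, 3.91 and 4.98 in the microglia as lowest, median and highest. Tlr5 was thus clear in microglia and BMD MLCs, which overlapped, and at or below 3 counts in 4 of 6 ER-Hoxb8 MLC libraries.

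Of the endosomal receptors, Tlr8 separated microglia from every other group. It read 6.66, 5.99 and 6.17 log2 CPM in the BMD macrophages and 6.19, 6.13 and 3.93 in the ER-Hoxb8 macrophages, with lowest, median and highest values of 6.51, 7.2 and 7.29 in the BMD MLCs, 3.90, 5.36 and 6.20 in the ER-Hoxb8 MLCs and -3.62, 0.46 and 2.01 in the microglia. The first 4 groups overlapped in steps, and each of the 9 microglia libraries lay below all of them. Tlr3 read 0.13, 1.91 and 3.19 in the BMD macrophages and 2.78, 2.59 and 0.89 in the ER-Hoxb8 macrophages, and 0.96, 2.78 and 3.68 in the BMD MLCs, 1.68, 5.02 and 5.55 in the ER-Hoxb8 MLCs and 4.61, 5.64 and 6.33 in the microglia as lowest, median and highest. Microglia had the highest Tlr3 mean, overlapping only the ER-Hoxb8 MLCs. Tlr7 was abundant in every group, at 7.33 to 7.76 in the BMD macrophages, 6.58 to 8.01 in the ER-Hoxb8 macrophages, 8.08 to 9.40 in the BMD MLCs, 6.51 to 9.55 in the ER-Hoxb8 MLCs and 7.67 to 8.4 in the microglia, all of which overlapped a neighbour. Tlr9 ran from 2.96 to 3.20 in the BMD macrophages, 2.81 to 4.84 in the ER-Hoxb8 macrophages, 1.19 to 4.14 in the BMD MLCs, 0.73 to 4.75 in the ER-Hoxb8 MLCs and 0.58 to 5.75 in the microglia, again overlapping. Tlr13 read 9.70, 9.02 and 9.87 in the BMD macrophages and 8.81, 8.68 and 7.98 in the ER-Hoxb8 macrophages, and 9.28, 9.66 and 9.96 in the BMD MLCs, 7.30, 8.27 and 9.04 in the ER-Hoxb8 MLCs and 7.75, 8.82 and 9.24 in the microglia as lowest, median and highest. In its order of means (BMD MLCs, BMD macrophages, microglia, ER-Hoxb8 macrophages, ER-Hoxb8 MLCs) every neighbour overlapped the next.

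**Figure D2:**
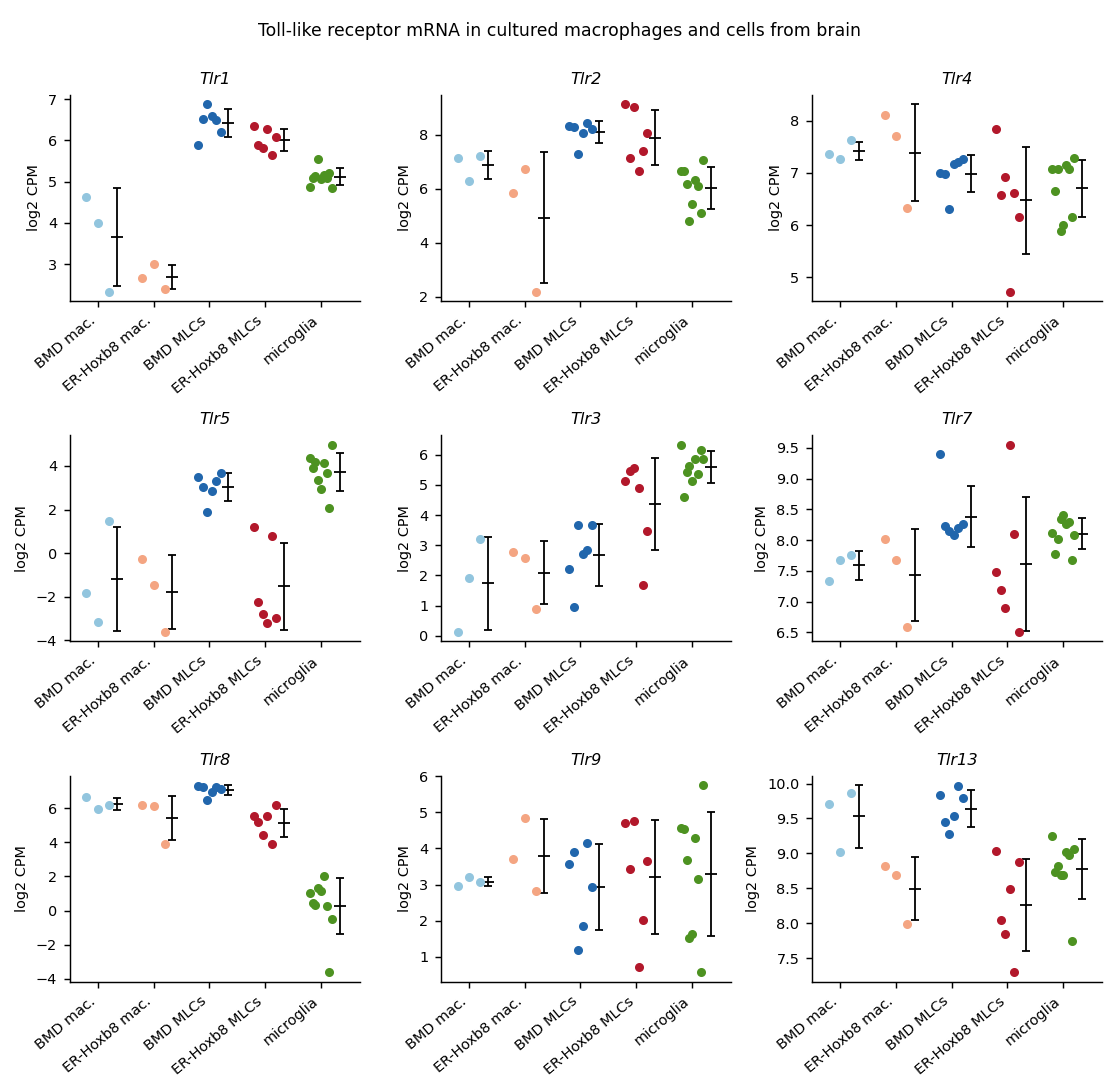
Levels of the 9 receptors (log2 CPM, vertical axis) in each library of the BMD macrophages, ER-Hoxb8 macrophages, BMD MLCs, ER-Hoxb8 MLCs and microglia, with points for libraries and bars for the mean and SD. The 9 microglia libraries read -3.62 to 2.01 for Tlr8, below the 18 libraries of the other groups.

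The composition of the sorted libraries also differed between groups. Neutrophil markers (7 genes, Ngp the most abundant by group mean, as for the genes named below) summed to 7973, 4774, 31500, 34300, 34130 and 33000 CPM in the 6 BMD MLC libraries and to 824, 263, 368, 20360, 44470 and 3614 CPM in the ER-Hoxb8 MLCs, against 439 to 6459 CPM in the microglia. Border-macrophage markers (6 genes, Mrc1 the most abundant) summed to 1888 to 3490, 271 to 1245 and 18.7 to 192 CPM in the BMD MLCs, ER-Hoxb8 MLCs and microglia, and classical monocyte markers (3 genes, Ccr2 the most abundant) to 190 to 512 CPM, to 102 to 420 CPM in ER-Hoxb8 MLCs replicates 1 to 5 and 6743 CPM in replicate 6, and to 12.6 to 85.8 CPM. Replicate 6 also had the highest T and NK cell and dissociation sums of its group (540 and 476 CPM). These values stand beside the receptor results below, and their part in them was not tested.

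ER-Hoxb8 macrophages and BMD macrophages differed in 0 of 9 receptors by limma, where 1.96% of all genes passed, with a median log2 fold change of -0.60 over the receptors tested and 0.00 over all genes. Tlr13 lay lower in 3 of 3 ER-Hoxb8 libraries (8.81, 8.68 and 7.98 against 9.70, 9.02 and 9.87 log2 CPM) and did not pass (adjusted p = 0.267). At an unadjusted p below 0.05 there were 1071 genes and 3 receptors. Without BMD macrophages replicate 3, Tlr1 passed as lower (log2 fold change -1.63). Of 53 pathway genes 0 rose and 2 fell (list median -0.15), Ly86 (-6.83, adjusted p = 1.32e-10) and the endosomal peptide transporter Slc15a3 (-2.88, adjusted p = 0.000229), and of 12 interferon-stimulated genes 0 passed.

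In brain, marrow cells carried more Tlr1 and Tlr5 than marrow macrophages in culture. These 2 of 9 receptors rose, beside 30.6% of all genes (median 0.80 over the receptors and -0.01 over all genes). Ly96 rose (log2 fold change 0.98, adjusted p = 0.0299), while the endosomal protease Ctsb (-3.10, adjusted p = 1.07e-05) and the kinase Ikbke (-7.65, adjusted p = 2.58e-06) fell, each in 6 of 6 BMD MLC libraries. For Tlr1 the log2 fold change was 2.78 (SE 0.33, adjusted p = 8.16e-07), with 6 of 6 libraries higher, and for Tlr5 it was 4.22 (SE 0.98, adjusted p = 0.00209), with 6 of 6 higher. Without BMD macrophages replicate 3 these were 2.12 and 5.55, and without replicate 2 Tlr5 was at 3.23. The pathway list had 10 of 53 genes higher and 10 lower (median -0.11), and of 12 interferon-stimulated genes 5 rose. Tlr12 rose too (4.99, adjusted p = 0.00866, 6 of 6). Of 7 neutrophil markers 7 rose and of 9 microglia markers 8 rose. Classical monocyte markers summed to 5.14 to 7.71 CPM in the BMD macrophages and 190 to 512 CPM in the BMD MLCs. In that order border-macrophage markers summed to 285 to 1344 and 1888 to 3490 CPM. The part of these markers in the receptor result was not tested. With these groups alone in the fit 5 receptors passed (beside 46.7% of all genes), the added ones being Tlr2 (1.23), Tlr7 (0.80) and Tlr8 (0.80).

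ER-Hoxb8 cells from brain also carried more Tlr1, by 10.1-fold over ER-Hoxb8 macrophages, together with Tlr2 (5.16-fold) and Tlr3 (5.84-fold). These 3 of 9 receptors rose, beside 34.8% of all genes (medians 0.19 and -0.15). Ly86 (log2 fold change 9.00, adjusted p = 3.91e-15), Irf7, a transcription factor that drives interferon genes (3.59, adjusted p = 0.00333), and the cytokine-signalling inhibitor Socs1 (6.86, adjusted p = 1.23e-06) rose in 6 of 6 libraries. For Tlr1 the log2 fold change was 3.32 (SE 0.33, adjusted p = 2.31e-08), with 6 of 6 libraries higher. Tlr2 (2.97, SE 0.68, adjusted p = 0.00161) and Tlr3 (2.28, SE 0.73, adjusted p = 0.0183) overlapped the cultured cells, with 5 of 6 libraries above them. Pathway genes went both ways, with 15 of 53 higher and 7 lower (median 0.10), and 11 of 12 interferon-stimulated genes rose, among them Isg15 (5.12, adjusted p = 8.4e-09) and Cxcl10 (9.88, adjusted p = 3.16e-10). Of 7 neutrophil markers 7 rose, of 9 microglia markers 7 rose and of 4 T and NK cell markers 3 rose, to sums of 5.42 to 540 CPM. ER-Hoxb8 macrophages replicate 3 read lowest of its group for all 9 receptors, and without it Tlr2 kept a smaller fold (1.59, with 3.88 without replicate 2), the Tlr3 call ended (1.68, adjusted p = 0.131, with 0.00105 to 0.216 over the other settings) and Tlr4 passed as lower (-1.44), as it also did without ER-Hoxb8 MLCs replicate 1 (-1.18). With the 3 WTHox libraries alone Tlr3 did not pass (1.27) and Tlr4 passed as lower (-1.55).

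Whether the change in brain differed between ER-Hoxb8 cells and marrow cells was tested as the difference of those changes, and 0 of 9 receptors passed by limma, beside 3.28% of all genes (medians -0.43 and -0.20). At an unadjusted p below 0.05 there were 1920 genes and 1 receptor. Without BMD macrophages replicate 3, Tlr5 passed, with a difference of -5.30. Of 53 pathway genes 7 passed as higher and 0 as lower (median 0.03), and of 12 interferon-stimulated genes 6 passed as higher, Isg15 among them (4.62, adjusted p = 0.000128).

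Against microglia, BMD MLCs carried 83.7-fold more Tlr8, and more Tlr1 (2.53-fold), Tlr2 (3.85-fold) and Tlr13 (1.78-fold), but less Tlr3 (0.148 of the microglia level). These 5 of 9 receptors, 4 higher and 1 lower, stand beside 20.5% of all genes (medians 0.28 and 0.06), and the groups did not overlap for any of the 5. Ly96 rose (log2 fold change 1.18, adjusted p = 0.00103, overlapping) and Cd180, a receptor relative that pairs with Ly86, fell (-2.49, adjusted p = 1.06e-09). For Tlr8 the log2 fold change was 6.80 (SE 0.57, adjusted p = 8.32e-10), with 6 of 6 libraries higher. Tlr1 (1.32, SE 0.24, adjusted p = 0.000231), Tlr2 (2.07, SE 0.51, adjusted p = 0.00364) and Tlr13 (0.86, SE 0.25, adjusted p = 0.0121) were each higher in 6 of 6. Tlr3 was lower in 6 of 6 (-2.91, SE 0.55, adjusted p = 0.000264). Of 7 neutrophil markers 6 rose, of 6 border-macrophage markers 4 rose and 1 fell, of 3 classical monocyte markers 3 rose and of 9 microglia markers 7 fell. Dissociation genes (6 genes, 4 higher and 1 lower) summed to 85.4 to 278 CPM in the BMD MLCs and 16.1 to 110 CPM in the microglia, Fos being higher in 6 of 6 (3.81, adjusted p = 3.03e-06), and their part was not tested. Among 53 pathway genes 6 rose and 4 fell (median 0.00), the inhibitor Irak3 (3.60, adjusted p = 0.000375) and Irf7 (3.00, adjusted p = 0.00151) among those that rose, and 6 of 12 interferon-stimulated genes rose.

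ER-Hoxb8 MLCs likewise carried 24.4-fold more Tlr8 than microglia, with more Tlr1 (1.87-fold) and Tlr2 (3.98-fold). They carried less Tlr5, with no CPM fold given since 4 of 6 libraries were at or below 3 counts. These 4 of 9 receptors, 3 higher and 1 lower, stand beside 33.9% of all genes (medians -0.23 and -0.10). Irf7 (log2 fold change 6.33, adjusted p = 2.32e-08), Socs1 (5.99, adjusted p = 3.2e-08) and the scavenger receptor Cd36, a helper of Tlr2 (6.31, adjusted p = 1.86e-06), rose in 6 of 6 libraries. For Tlr8 the log2 fold change was 4.86 (SE 0.57, adjusted p = 1.7e-07), with 6 of 6 libraries higher. For Tlr5 it was -5.26 (SE 0.73, adjusted p = 2.43e-06), with 6 of 6 lower. This fitted Tlr5 value depends on the libraries at or below 3 counts. Tlr1 was higher in 6 of 6 (0.89, SE 0.24, adjusted p = 0.00552) and Tlr2 in 5 of 6 (1.86, SE 0.51, adjusted p = 0.00517). Tlr3 missed the threshold (-1.22, adjusted p = 0.0872) and passed as lower with the WTHox libraries alone (-2.24). Among 53 pathway genes 13 rose and 9 fell (median -0.03), and 12 of 12 interferon-stimulated genes rose, Isg15 by 5.82 (adjusted p = 1.46e-12). Of 7 neutrophil markers 0 passed, of 9 microglia markers 9 fell and of 3 classical monocyte markers 3 rose. Dissociation genes (6 genes, 4 higher) summed to 77.6 to 476 CPM, Fos being higher in 6 of 6 (4.45, adjusted p = 1.18e-07), and their part was not tested. Tlr2 did not pass with the WTHox libraries alone (1.34). Tlr13 passed as lower without ER-Hoxb8 MLCs replicate 1 (-0.67) or microglia replicate 8 (-0.64). Tlr7 passed as lower without ER-Hoxb8 MLCs replicate 4 (-0.88) and with the GFPHox libraries alone (-0.92). Without the YSWT libraries Tlr13 also passed as lower (-0.62).

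Between the graft sources, ER-Hoxb8 MLCs carried less Tlr5, Tlr8 (0.291 of the BMD MLC level) and Tlr13 (0.413). These 3 of 9 receptors fell, beside 15.2% of all genes (medians -0.52 and -0.22), and for all 3 the groups did not overlap. Cd14 fell (log2 fold change -0.998, adjusted p = 0.0253, overlapping), while Cd180 (1.82, adjusted p = 3.44e-06), Socs1 (5.77, adjusted p = 1.8e-06) and Irf7 (3.32, adjusted p = 0.00264) rose. Tlr5 was lower in 6 of 6 libraries (-4.57, SE 0.80, adjusted p = 0.000269), a fitted value that depends on ER-Hoxb8 MLC libraries at or below 3 counts. Tlr13 was lower in 6 of 6 (-1.38, SE 0.27, adjusted p = 0.00092) and Tlr8 in 6 of 6 (-1.94, SE 0.63, adjusted p = 0.0366). Tlr3 did not pass (1.69, adjusted p = 0.0566). Pathway genes were higher in 9 and lower in 3 of 53 cases (median -0.06), and 12 of 12 interferon-stimulated genes rose, Isg15 by 4.96 (adjusted p = 2.23e-09). Of 7 neutrophil markers 3 fell, of 6 border-macrophage markers 3 fell and of 4 T and NK cell markers 2 rose, and their part in the receptor result was not tested.

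The Tlr8 call between the graft sources ended in 8 of the 12 fits without 1 library, and the cause was not tested: BMD MLCs replicates 1 (-1.90), 2 (-1.90), 4 (-1.96), 5 (-1.91) and 6 (-1.93), and ER-Hoxb8 MLCs replicates 2 (-1.95), 3 (-1.80) and 5 (-1.70), with an adjusted p of up to 0.0883. It did not pass with the GFPHox libraries alone (-2.02) or the WTHox libraries alone (-1.86). Tlr3 passed as higher without BMD MLCs replicates 3 (1.88) or 6 (1.89) or ER-Hoxb8 MLCs replicates 5 (2.22) or 6 (1.87), and with the GFPHox libraries alone (2.70). Tlr7 passed as lower without ER-Hoxb8 MLCs replicate 4 (-1.15) and with the GFPHox libraries alone (-1.197).

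Across the 27 libraries of cultured macrophages, MLCs and microglia, the genes whose log2 levels followed each receptor most closely were found among 12518 genes tested, as a description that shares libraries, groups and depth. Tlr1 was followed by Slamf6 (r = 0.946), Ms4a6b (0.910) and Ccr1 (0.904), and Tlr2 by Tgfbi (0.877), Nfkbia (0.827) and Icosl (0.826). For Tlr4 these were Trmt44 (0.854), Hspbp1 (0.850) and Thop1 (0.850), and for Tlr5 Sdk1 (0.929), Gm4980 (0.896) and Manea (0.893). Tlr3 was nearest to Cass4 (0.845), Gm3164 (0.843) and Nrep (0.833), and Tlr7 to Ppp1r21 (0.809), Kdsr (0.795) and Abhd15 (0.757). Tlr8 was nearest to Aph1b (0.954), Fam129a (0.952) and Cd300lh (0.943), Tlr9 to Map3k14 (0.878), Gpaa1 (0.856) and Stard3 (0.848), and Tlr13 to P4htm (0.890), Ets2 (0.858) and Entpd4 (0.855). With each group's mean removed, r for these pairs ran from 0.077 (Tlr1 and Ms4a6b) to 0.934 (Tlr9 and Map3k14), with 0.324 for Tlr1 and Slamf6. No receptor was among the 3 nearest genes of another. Among the 36 pairs of receptors, r with each group's mean removed was highest between Tlr2 and Tlr4 (0.790, with 0.323 over all libraries).

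The Adar1 KO comparisons start with the targeted transcript. Adar read 4.36, 4.23 and 4.24 log2 CPM in the Adar1 KO sgRNA 1 progenitors and 4.20, 3.42 and 4.28 in the NTC progenitors. In macrophages it read 6.96, 7.16 and 7.01 with sgRNA 1 and 5.73 and 5.67 with NTC, which is higher in 3 of 3 knockout libraries (log2 fold change 1.34, adjusted p = 0.000976). With sgRNA 2 it read 4.35, 4.56 and 4.36 in progenitors and 7.02, 7.00, 7.02, 7.03 and 6.99 in macrophages. A guide that disrupts the protein need not lower the transcript, and the level of Adar mRNA does not check the label. NTC macrophages replicate 2 was normalised apart from the other libraries and is left out of the comparisons. Its Adar level was 5.86.

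NTC progenitors gained every receptor tested as they became macrophages. Tlr5 did not pass the filter and was at or below 3 counts in 3 of 3 NTC progenitor and 2 of 2 NTC macrophage libraries, so 8 of 9 receptors were tested. All 8 rose, where 71.8% of all genes passed, and the median log2 fold change was 5.04 over the 8 receptors beside -0.08 over all genes. The endosomal receptors Tlr8 (242-fold), Tlr9 (at least 139-fold), Tlr13 (132-fold) and Tlr7 (77.6-fold) rose by more than the surface receptors, while the endosomal Tlr3 rose 2.56-fold. Tlr8 read 0.29, -0.07 and -0.74 log2 CPM in the NTC progenitors and 7.74 and 7.57 in the NTC macrophages, far apart (log2 fold change 7.83, SE 0.28, adjusted p = 8.18e-10, 2 of 2 higher). Tlr13 read 3.05, 1.96 and 1.49 in the progenitors and 9.36 and 9.32 in the macrophages (7.17, SE 0.33, adjusted p = 5.1e-09, 2 of 2). Tlr7 read 3.29, 2.96 and 2.30, then 9.32 and 8.99 (6.31, SE 0.26, adjusted p = 2.05e-09, 2 of 2). Tlr9 was at or below 3 counts in 3 of 3 progenitor libraries (-2.87, -2.90 and -2.98) and read 4.23 and 4.22 in macrophages, a rise that is a lower bound (adjusted p = 1.56e-08, 2 of 2). Tlr3 read 2.17, 1.18 and 1.40, then 3.01 and 2.95 (1.40, SE 0.30, adjusted p = 0.00126, 2 of 2). NTC macrophages replicate 2, left out as normalised apart, read within this progenitor range for Tlr3.

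The surface receptors Tlr1, Tlr2 and Tlr4 rose in the NTC cells by 16.7-fold, 6.08-fold and 2.15-fold. Tlr1 read -0.78, -1.62 and -0.88 log2 CPM in the NTC progenitors and 2.38 and 3.00 in the NTC macrophages (log2 fold change 3.78, SE 0.41, adjusted p = 6.65e-06, 2 of 2 higher). Tlr2 read 5.28, 4.89 and 4.90, then 7.77 and 7.49 (2.61, SE 0.30, adjusted p = 9.75e-06, 2 of 2). Tlr4 read 7.54, 7.44 and 7.21, then 8.6 and 8.42 (1.11, SE 0.12, adjusted p = 6.18e-06, 2 of 2). None of the 3 overlapped between the stages. Unc93b1, the chaperone of the endosomal receptors, was higher by 4.52 (adjusted p = 2.46e-11) and the protease Ctss by 7.46 (adjusted p = 1.72e-09), each in 2 of 2 libraries, as were Cd14 (2.51, adjusted p = 1.12e-08), Ly96 (3.52, adjusted p = 1.42e-07) and Irf5 (3.91, adjusted p = 1.1e-09), while Nfkb1 fell (-2.89, adjusted p = 7.36e-08). The pathway list had 32 of 51 genes higher and 5 lower (median 0.98), with 6 of 10 chaperones and processing genes higher and 2 lower. Tlr6 rose by 2.51 (adjusted p = 1.1e-07), 9 of 12 interferon-stimulated genes rose and 1 fell. Macrophage markers (6 of 6 higher) summed to 248 to 332 CPM in the progenitors and 11340 and 10050 CPM in the macrophages, and progenitor markers (3 of 4 tested lower) to 16120 to 24390 CPM and to 1.66 and 1.37 CPM.

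With sgRNA 2, which has no NTC library in its own set, the same stages gave 7 of 7 receptors tested as higher in macrophages, beside 81.3% of all genes (medians 4.44 and -0.03). Tlr1 and Tlr5 did not pass the filter. Tlr8 read -1.01, -0.31 and -1.26 log2 CPM in the progenitors and 6.17, 6.42, 6.38, 6.41 and 6.49 in the macrophages, 170-fold higher. Tlr13 read 2.72, 2.60 and 2.22, then 9.86, 9.80, 9.87, 9.84 and 9.86, 162-fold higher, and Tlr7 read 1.95, 1.87 and 1.87, then 7.16, 7.14, 7.22, 7.13 and 7.17, 39.4-fold higher. The log2 fold changes of these 3 were 7.24 (SE 0.19, adjusted p = 1.44e-10), 7.33 (SE 0.09, adjusted p = 9.75e-13) and 5.27 (SE 0.05, adjusted p = 2.84e-13), with 5 of 5 libraries higher for each. Tlr9 read -1.09, -2.15 and -1.52, then 2.68, 3.02, 2.74, 2.64 and 3.21 (4.44, adjusted p = 6.88e-08, 5 of 5), and Tlr3 read 0.47, -0.09 and -0.74, then 3.16, 4.48, 3.88, 3.51 and 4.43 (4.01, adjusted p = 1.91e-06, 5 of 5). Tlr2 read 4.93, 4.91 and 4.89, then 6.79, 6.96, 6.80, 6.71 and 7.04 (1.95, adjusted p = 2.55e-09, 5 of 5), and Tlr4 read 7.68, 7.74 and 7.76, then 8.24, 8.20, 8.28, 8.24 and 8.15 (0.50, adjusted p = 7.49e-07, 5 of 5). Tlr1 stayed low, at -0.63, -1.42 and -0.73 in progenitors and -3.56, 0.54, -3.56, -0.67 and -1.25 in macrophages, where 2 of 5 libraries were at or below 3 counts. The pathway list had 35 of 52 genes higher and 4 lower (median 0.67), Unc93b1 by 4.20 (adjusted p = 1.26e-13) and Cd14 by 1.97 (adjusted p = 1.66e-10) among those that rose, and 12 of 12 interferon-stimulated genes rose, from sums of 163 to 164 CPM to 7109 to 7861 CPM (Ifit2 the most abundant in macrophages). Macrophage markers (6 of 6 higher) summed to 359 to 368 CPM in the progenitors and 6279 to 6679 CPM in the macrophages. Differences between the sgRNA 2 and NTC cells were not tested.

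**Figure D3:**
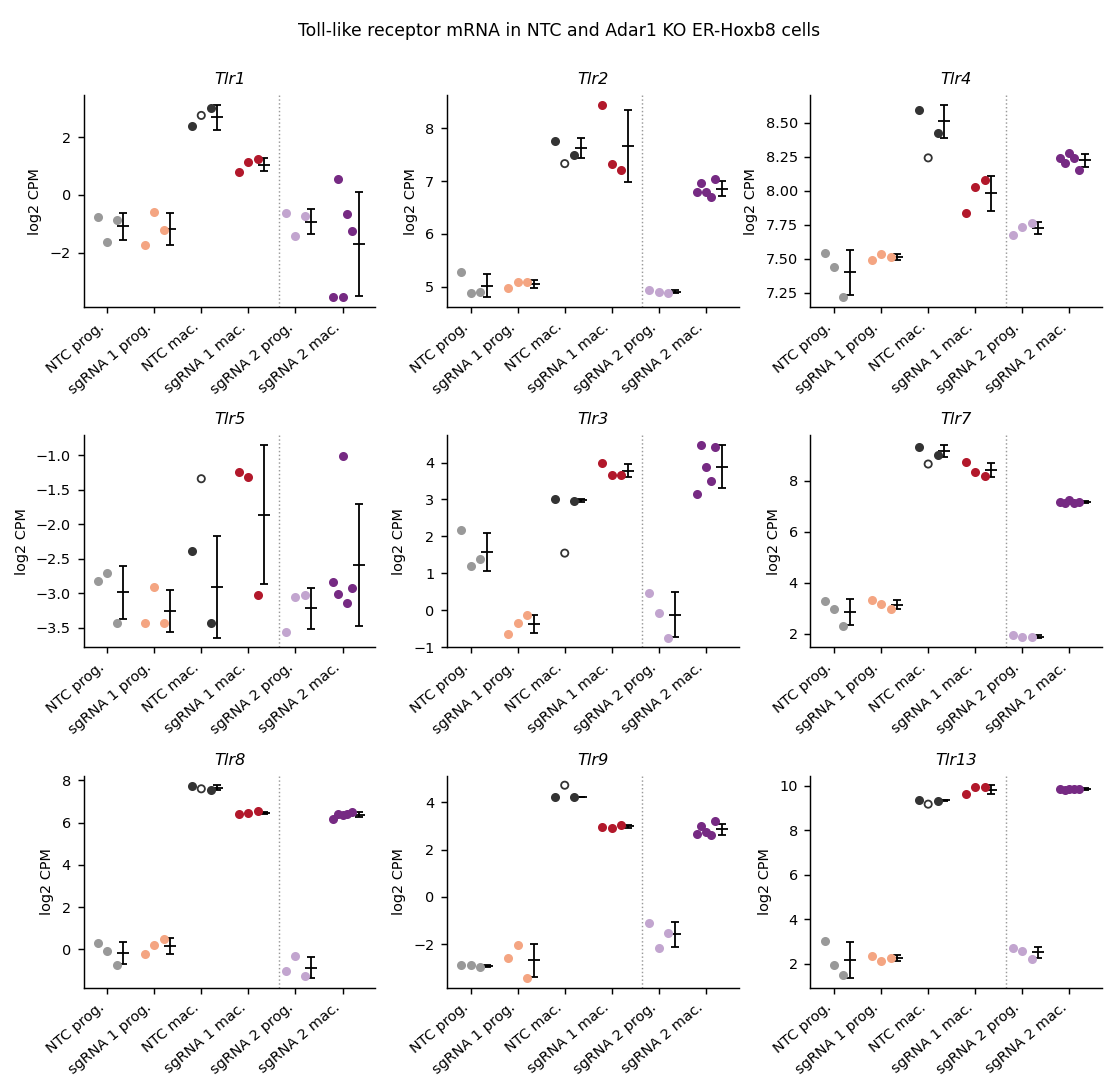
Levels of the 9 receptors (log2 CPM, vertical axis) in each library of the NTC, Adar1 KO sgRNA 1 and Adar1 KO sgRNA 2 progenitors and macrophages, with points for libraries and bars for the mean and SD. The dotted line divides groups that were normalised apart. The open point is NTC macrophages replicate 2, which was normalised apart from the other libraries and is not in the mean.

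In progenitors, where the loss of ADAR1 was compared with NTC before differentiation, a single receptor, Tlr3, was lower with sgRNA 1, at 0.226 of the NTC level. This is 1 of 8 receptors tested, beside 0.936% of all genes (medians 0.11 and -0.02). Tlr3 read -0.63, -0.35 and -0.13 log2 CPM with sgRNA 1 and 2.17, 1.18 and 1.40 with NTC. The groups did not overlap, and the fall was seen in 3 of 3 libraries (log2 fold change -1.96, SE 0.26, adjusted p = 0.00526). The other 7 receptors tested had an adjusted p above the threshold, with levels that overlapped: Tlr4, the most abundant, read 7.49, 7.53 and 7.51 against 7.54, 7.44 and 7.21. Tlr1 (-1.73, -0.61 and -1.21), Tlr2 (4.97, 5.10 and 5.08), Tlr7 (3.33, 3.16 and 2.96), Tlr8 (-0.21, 0.19 and 0.50), Tlr9 (-2.57, -2.05 and -3.43) and Tlr13 (2.38, 2.14 and 2.28) in the knockout progenitors lay within or near the NTC range. The macrophage marker Cd68 (log2 fold change -0.91, adjusted p = 0.00475) and the border-macrophage marker F13a1 (-1.31, adjusted p = 0.0195) were also lower in 3 of 3 libraries, and macrophage markers summed to 214 to 230 CPM against 248 to 332 CPM, whose part in the Tlr3 result was not tested. Of 51 pathway genes and 12 interferon-stimulated genes, 0 passed by limma, in a comparison with 725 genes at an unadjusted p below 0.05.

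In macrophages Tlr1 (0.308 of the NTC level), Tlr4 (0.694), Tlr8 (0.439) and Tlr9 (0.42) were lower with sgRNA 1 than with NTC. These 4 of 8 receptors fell and 0 rose, beside 21.8% of all genes, and the median log2 fold change over the 8 was -0.64 beside 0.05 over all genes. Interferon-stimulated genes went the other way: 12 of 12 rose, Ifit1 by 6.05 (adjusted p = 2.42e-06) and Isg15 by 4.69 (adjusted p = 4.17e-06), with sums of 12650, 10160 and 5849 CPM against 508 and 443 CPM. Cd14 rose (log2 fold change 0.88, adjusted p = 0.000505), and so did Myd88 (0.38, adjusted p = 0.0181) and Irf7 (5.61, adjusted p = 3.05e-07), while the adaptor Ticam2 fell (-0.92, adjusted p = 0.000946), each in 3 of 3 libraries. Tlr8 read 6.42, 6.45 and 6.53 log2 CPM against 7.74 and 7.57 (-1.19, SE 0.28, adjusted p = 0.0124, 3 of 3 lower), and Tlr1 read 0.79, 1.14 and 1.25 against 2.38 and 3.00 (-1.63, SE 0.41, adjusted p = 0.0158, 3 of 3). Tlr4 read 7.83, 8.03 and 8.08 against 8.6 and 8.42 (-0.53, SE 0.12, adjusted p = 0.00912, 3 of 3), and Tlr9 read 2.97, 2.91 and 3.05 against 4.23 and 4.22 (-1.24, SE 0.38, adjusted p = 0.0374, 3 of 3). None of the 4 overlapped. Tlr2 read 8.45, 7.33 and 7.21 against 7.77 and 7.49, and overlapped. Tlr3 (3.98, 3.67 and 3.67 against 3.01 and 2.95; 0.79, adjusted p = 0.0792), Tlr7 (8.73, 8.31 and 8.18 against 9.32 and 8.99; -0.75, adjusted p = 0.0626) and Tlr13 (9.61, 9.92 and 9.96 against 9.36 and 9.32) did not overlap and did not pass.

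The NTC macrophages hold 2 libraries in this comparison, and each of the 4 calls ended in some fit without 1 library. Tlr9 ended without any 1 of the 5 (-1.24, -1.21 and -1.28 without Adar1 KO sgRNA 1 macrophages replicates 1, 2 and 3, and -1.24 and -1.25 without NTC macrophages replicates 1 and 3, adjusted p up to 0.174), Tlr4 (-0.44) and Tlr8 (-1.10) without NTC macrophages replicate 1, and Tlr1 (-1.32) without replicate 3, with 1 receptor passing at the fewest. Tlr7 passed as lower without Adar1 KO sgRNA 1 macrophages replicate 1 (-0.91) and with a replicate block (-0.75). Macrophage markers (6 genes, 3 lower) summed to 6770 to 7882 CPM with sgRNA 1 and 11340 and 10050 CPM with NTC, classical monocyte markers (3 genes, 1 higher and 1 lower) to 410 to 1136 CPM against 288 and 233 CPM, and border-macrophage markers (2 tested, 2 lower, F13a1 the most abundant) to 250 to 368 CPM against 2343 and 1886 CPM. Neutrophil markers (5 tested, 2 higher, S100a8 the most abundant) summed to 69.1 to 82.6 CPM against 15.35 and 10.8 CPM and endothelial markers (3 tested, 2 higher, Flt1 the most abundant) to 102.5 to 142 CPM against 37.3 and 48.2 CPM. The part of these markers was not tested. Tlr6 fell as well (-0.83, adjusted p = 0.00491, 3 of 3), and the pathway list held 3 genes that rose and 3 that fell of 51 (median 0.00).

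The difference between the knockout's effect in macrophages and in progenitors passed for 3 of 8 receptors, beside 13.6% of all genes (medians -0.84 and 0.08). For Tlr3 the change in macrophages exceeded that in progenitors by 2.75 on the log2 scale (SE 0.40, adjusted p = 0.000783), since it fell in progenitors and read higher in macrophages. For Tlr8 (-1.52, SE 0.38, adjusted p = 0.0232) and Tlr4 (-0.64, SE 0.16, adjusted p = 0.0227) the macrophage change was the more negative. Tlr1 (-1.54, adjusted p = 0.0887), Tlr7 (-1.04, adjusted p = 0.0709) and Tlr9 (-1.48, adjusted p = 0.0785) did not pass. Of 12 interferon-stimulated genes 12 passed as higher, and of 51 pathway genes 2 passed as higher and 3 as lower (median 0.05). The Tlr4 call ended without Adar1 KO sgRNA 1 progenitors replicates 2 (-0.63) or 3 (-0.64) or NTC macrophages replicate 1 (-0.56), and the Tlr8 call without Adar1 KO sgRNA 1 progenitors replicate 3 (-1.35), Adar1 KO sgRNA 1 macrophages replicate 2 (-1.51) or NTC macrophages replicate 1 (-1.43). Tlr9 passed without Adar1 KO sgRNA 1 progenitors replicate 3 (-1.85). Tlr7 passed without NTC progenitors replicate 1 (-1.26) and with a replicate block.

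The baricitinib libraries repeat the knockout comparison in a separate set. Adar read 5.12, 4.94 and 4.69 log2 CPM in NTC and 7.42, 6.52 and 6.37 in Adar1 KO macrophages without drug, and 3.70, 3.64 and 3.22 in NTC and 1.55, 2.16, 2.91 and 2.02 in Adar1 KO macrophages at 10 uM. Tlr5 did not pass the filter (-2.78 to -0.81 across the 33 libraries), so 8 of 9 receptors were tested. Interferon-stimulated genes summed to 337 to 398 CPM in NTC and 4777 to 5243 CPM in Adar1 KO cells without drug, and to 155 to 168 and 157 to 173 CPM at 10 uM. Other markers moved too. Border-macrophage markers (6 genes, F13a1 the most abundant) summed to 896 to 1122 and 282 to 426 CPM in NTC and Adar1 KO cells at 0 uM and to 1990 to 2199 and 1648 to 2201 CPM at 10 uM. In the same order, classical monocyte markers (3 genes, Ccr2 the most abundant in NTC and Ly6c2 in Adar1 KO) summed to 273 to 326, 354 to 471, 112 to 138 and 110 to 156 CPM and dissociation genes (6 genes) to 370 to 459, 188 to 232, 162 to 199 and 102 to 158 CPM. The part of any markers in the baricitinib results was not tested.

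Without drug, Adar1 KO macrophages carried 5.83-fold more Tlr2 and 0.581 of the NTC level of Tlr8. These 2 of 8 receptors, 1 higher and 1 lower, stand beside 25.3% of all genes (medians 0.15 and -0.02). Cd14, which rose in the other set, fell here (log2 fold change -0.92, adjusted p = 0.000207), Ctss rose (1.32, adjusted p = 0.00012) and Irf7 rose (5.60, adjusted p = 0.000677), each in 3 of 3 libraries. Tlr2 read 7.77, 7.76 and 7.95 log2 CPM in the knockout and 5.27, 5.40 and 5.20 in NTC, far apart (2.54, SE 0.36, adjusted p = 7.54e-06, 3 of 3 higher). In the other set Tlr2 did not differ in this way, with overlapping groups and means of 7.66 with sgRNA 1 and 7.63 with NTC. Tlr8 read 6.25, 6.09 and 6.09 against 6.75, 6.95 and 7.06, also apart (-0.78, SE 0.16, adjusted p = 0.000744, 3 of 3 lower). Tlr4 read 7.66, 7.55 and 7.61 against 7.83, 7.75 and 8.03 and did not pass (-0.26, adjusted p = 0.0947), although the groups did not overlap. Tlr9, lower in the other set, read 3.90, 4.00 and 3.78 against 3.95, 3.09 and 3.13 and did not pass (0.50, adjusted p = 0.374). Tlr1 read -2.78, 0.95 and 1.27 against 1.84, 1.72 and 1.55 (-1.89, adjusted p = 0.0796), and passed as lower without Adar1 KO 0 uM replicates 2 (-2.46) or 3 (-2.62), the libraries other than the one at its lowest value. Pathway genes split, with 7 of 50 higher and 8 lower (median 0.15), 12 of 12 interferon-stimulated genes rose, Ifit1 by 7.18 (adjusted p = 0.000213) and Isg15 by 4.20 (adjusted p = 0.00463), and Tlr6 fell (-0.67, adjusted p = 0.0306). Of 4 border-macrophage markers tested 1 rose and 3 fell, of 3 classical monocyte markers 1 rose and 2 fell, and of 6 dissociation genes 4 fell.

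At 10 uM baricitinib most receptors fell in Adar1 KO macrophages, Tlr9 to 0.168 of the level without drug, Tlr4 to 0.441, Tlr7 and Tlr13 to 0.509, Tlr2 to 0.525 and Tlr8 to 0.774. Tlr1 rose 2.72-fold. These 7 of 8 receptors, 6 lower and 1 higher, stand beside 65.8% of all genes, and the median log2 fold change was -0.99 over the 8 beside 0.05 over all genes. Among the pathway genes Unc93b1 fell by 2.78 on the log2 scale (adjusted p = 1.66e-12), Ticam1, the TRIF adaptor, by 2.31 (adjusted p = 2.58e-09), and Myd88 by 1.11 (adjusted p = 0.000498), each lower in 4 of 4 libraries, while Cd14 rose (0.65, adjusted p = 0.000872). Tlr9 read 3.90, 4.00 and 3.78 log2 CPM at 0 uM and 0.79, 1.21, 1.86 and 1.47 at 10 uM (-2.56, SE 0.36, adjusted p = 5.58e-07, 4 of 4 lower), and Tlr4 read 7.66, 7.55 and 7.61, then 6.57, 6.12, 6.31 and 6.64 (-1.20, SE 0.11, adjusted p = 2.21e-10, 4 of 4). Tlr13 read 9.49, 9.34 and 9.65, then 8.68, 8.35, 8.39 and 8.66 (-0.98, SE 0.11, adjusted p = 6.82e-09, 4 of 4), and Tlr7 read 8.14, 7.79 and 8.02, then 7.45, 6.66, 6.65 and 7.14 (-1.01, SE 0.19, adjusted p = 4.74e-05, 4 of 4). These 4 separated fully between the doses. Tlr2 read 7.77, 7.76 and 7.95, then 7.03, 6.67, 6.95 and 6.93 (-0.93, SE 0.34, adjusted p = 0.0185, 4 of 4), and Tlr8 read 6.25, 6.09 and 6.09, then 5.99, 5.86, 5.40 and 5.79 (-0.38, SE 0.15, adjusted p = 0.029, 4 of 4). Tlr1 read -2.78, 0.95 and 1.27, then 1.97, 2.04, 1.78 and 1.93 (2.12, SE 0.74, adjusted p = 0.0135, 4 of 4 higher), and Tlr3 read 3.70, 3.73 and 3.51, then 2.80, 3.68, 2.09 and 1.3, overlapping.

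In this comparison 11 of 50 pathway genes rose and 28 fell (median -0.78), among them 5 of 5 adaptors and 7 of 10 chaperones and processing genes lower, and 0 of 12 interferon-stimulated genes rose and 11 fell. Tlr6 rose by 0.73 (adjusted p = 0.00352). Macrophage markers (6 genes, 5 lower, Cd68 the most abundant) summed to 6890 to 7181 CPM at 0 uM and 3810 to 4429 CPM at 10 uM. Of 4 border-macrophage markers tested 3 rose and 1 fell, of 3 classical monocyte markers 1 rose and 1 fell, and of 6 dissociation genes 2 rose and 3 fell. The Tlr1 call ended without Adar1 KO 0 uM replicate 1, the library at the lowest value (0.82, adjusted p = 0.291, with 0.00694 to 0.0515 over the other settings). The Tlr8 call ended without that library (-0.33) or Adar1 KO 10 uM replicate 3 (-0.26), the Tlr2 call without Adar1 KO 0 uM replicate 3 (-0.87), and Tlr3 passed as lower without Adar1 KO 10 uM replicate 2 (-1.58) or, outside the comparison, Adar1 KO 0.4 uM replicate 2 (-1.18).

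In NTC macrophages the drug lowered Tlr8 to 0.54 and Tlr4 to 0.709 of the level without drug. These 2 of 8 receptors fell, beside 13.8% of all genes (medians -0.35 and -0.01). Unc93b1 (log2 fold change -0.71, adjusted p = 0.0236) and Ticam1 (-0.92, adjusted p = 0.0168) fell in 3 of 3 libraries. Tlr8 read 6.75, 6.95 and 7.06 log2 CPM at 0 uM and 6.07, 5.89 and 6.14 at 10 uM, apart (-0.89, SE 0.16, adjusted p = 0.000653, 3 of 3 lower), and Tlr4 read 7.83, 7.75 and 8.03, then 7.40, 7.28 and 7.45, also apart (-0.49, SE 0.12, adjusted p = 0.00566, 3 of 3). Tlr2 read 5.27, 5.40 and 5.20, then 6.30, 6.52 and 6.04, higher in 3 of 3 without passing (1.00, adjusted p = 0.0679). Tlr9 (3.95, 3.09 and 3.13, then 2.09, 3.00 and 2.12; -0.99, adjusted p = 0.0862) and Tlr13 (9.46, 9.46 and 9.63, then 9.27, 9.11 and 9.32; -0.29, adjusted p = 0.0922) were lower in 3 of 3 and did not pass. Of 50 pathway genes 2 rose and 10 fell (median -0.20), and of 12 interferon-stimulated genes 0 rose and 2 fell. Macrophage markers (6 genes, 3 lower) summed to 7069 to 7262 CPM at 0 uM and 5386 to 5781 CPM at 10 uM. Without Adar1 KO 0.4 uM replicate 2, a library outside the comparison left out after seeing the data, 4 receptors passed (beside 20.9% of all genes), Tlr2 (1.00) and Tlr9 (-0.99) being the added ones.

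At 10 uM, Adar1 KO macrophages carried less Tlr9 (0.458 of the NTC level), Tlr4 (0.516) and Tlr13 (0.612) than NTC macrophages at the same dose. These 3 of 8 receptors fell, beside 45.3% of all genes (medians -0.51 and 0.00). Tlr4 read 6.57, 6.12, 6.31 and 6.64 log2 CPM in the knockout and 7.40, 7.28 and 7.45 in NTC, apart (-0.97, SE 0.11, adjusted p = 4.51e-08, 4 of 4 lower). Tlr13 read 8.68, 8.35, 8.39 and 8.66 against 9.27, 9.11 and 9.32 (-0.71, SE 0.11, adjusted p = 4e-06, 4 of 4), and Tlr9 read 0.79, 1.21, 1.86 and 1.47 against 2.09, 3.00 and 2.12 (-1.07, SE 0.36, adjusted p = 0.0166, 4 of 4). Neither overlapped. Unc93b1 (-1.58, adjusted p = 2.35e-07), Ticam1 (-1.42, adjusted p = 1.94e-05) and Irf5 (-2.08, adjusted p = 1.71e-09) were lower in 4 of 4, and 8 of 50 pathway genes rose and 21 fell (median -0.42). Macrophage markers (6 genes, 1 higher and 2 lower) summed to 3810 to 4429 CPM in the knockout and 5386 to 5781 CPM in NTC, Csf1r being lower in 4 of 4 (-1.98, adjusted p = 1.28e-08). Of 12 interferon-stimulated genes 0 passed by limma at this dose, in a comparison with 5754 genes at an unadjusted p below 0.05. The Tlr9 call ended without NTC 10 uM replicate 2 (-0.77) or Adar1 KO 10 uM replicate 1 (-0.89), and Tlr7 passed as lower without the latter (-0.53). Without Adar1 KO 0.4 uM replicate 2, outside the comparison, 5 receptors passed (beside 50.6% of all genes), with Tlr2 (0.61) and Tlr7 (-0.37) added.

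The drug's effect itself differed between the genotypes for 4 of 8 receptors, beside 39.5% of all genes (medians -0.70 and 0.06). The change from 0 to 10 uM was more negative in Adar1 KO than in NTC for Tlr2 by -1.93 (SE 0.50, adjusted p = 0.00329), Tlr9 by -1.57 (SE 0.53, adjusted p = 0.0195), Tlr4 by -0.70 (SE 0.16, adjusted p = 0.000956) and Tlr13 by -0.69 (SE 0.16, adjusted p = 0.000957). For Tlr2 the group means moved in opposite directions, from 7.83 to 6.89 log2 CPM in the knockout and from 5.29 to 6.28 in NTC. Tlr7 (-0.70, adjusted p = 0.0507), Tlr1 (2.51, adjusted p = 0.0655) and Tlr8 (0.50, adjusted p = 0.0741) did not pass. Of 50 pathway genes 6 passed as higher and 20 as lower (median -0.50), Unc93b1 (-2.07, adjusted p = 2.95e-06) and Ticam1 (-1.39, adjusted p = 0.00243) among them, and 10 of 12 interferon-stimulated genes passed as lower. The Tlr9 call ended without NTC 0 uM replicates 2 (-1.42) or 3 (-1.44) or NTC 10 uM replicate 2 (-1.27). Tlr7 passed without NTC 10 uM replicate 2 (-0.82), Adar1 KO 0 uM replicate 2 (-0.79), Adar1 KO 10 uM replicates 1 (-0.85) or 4 (-0.75) or, outside the comparison, Adar1 KO 0.4 uM replicate 2 (-0.70), Tlr1 passed without Adar1 KO 0 uM replicates 2 (3.08) or 3 (3.24), and Tlr8 without Adar1 KO 10 uM replicate 3 (0.62).

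Between these doses the receptors were described without a test of each step. Mean Tlr2 in NTC macrophages was 5.29 (SD 0.10), 5.48 (SD 0.32), 5.61 (SD 0.08), 5.65 (SD 0.27) and 6.28 (SD 0.24) log2 CPM at 0, 0.0006, 0.016, 0.4 and 10 uM, and in Adar1 KO macrophages 7.83 (SD 0.11), 7.65 (SD 0.22), 7.96 (SD 0.13), 8.31 (SD 1.5) and 6.89 (SD 0.16). The genotypes were apart at every dose. Mean Tlr8 in NTC was 6.92 (SD 0.15), 6.91 (SD 0.20), 6.96 (SD 0.13), 6.87 (SD 0.19) and 6.03 (SD 0.13), and in the knockout 6.14 (SD 0.09), 5.98 (SD 0.26), 6.11 (SD 0.38), 6.08 (SD 0.07) and 5.76 (SD 0.26), so the NTC level at 10 uM came down into the knockout range. Mean Tlr4 in the knockout was 7.60 (SD 0.06), 7.45 (SD 0.09), 7.62 (SD 0.14), 7.22 (SD 0.14) and 6.41 (SD 0.24), and mean Tlr13 9.50 (SD 0.15), 9.38 (SD 0.22), 9.53 (SD 0.11), 9.17 (SD 0.12) and 8.52 (SD 0.17). Mean Tlr9 in the knockout was 3.89 (SD 0.11), 3.18 (SD 0.46), 3.44 (SD 0.29), 4.01 (SD 1.18) and 1.33 (SD 0.45). The wide spread at 0.4 uM comes from the library labelled Adar1 KO 0.4 uM replicate 2, which read 10.04 for Tlr2, 5.31 for Tlr3, 8.36 for Tlr7 and 5.35 for Tlr9, where the other 2 libraries read 7.64 and 7.26, 1.36 and 1.96, 7.26 and 7.41, and 3.58 and 3.10. Its interferon-stimulated genes summed to 41330 CPM, against 195 and 393 CPM in the other 2 libraries, and its Adar level was 7.38 against 4.12 and 4.21.

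The remaining levels, in the same order of doses, were as follows. Tlr4 in NTC had means of 7.87 (SD 0.14), 7.84 (SD 0.16), 8.02 (SD 0.10), 7.98 (SD 0.10) and 7.38 (SD 0.09) log2 CPM, Tlr9 in NTC 3.39 (SD 0.49), 3.12 (SD 0.15), 3.27 (SD 0.23), 3.11 (SD 0.36) and 2.4 (SD 0.52), and Tlr13 in NTC 9.52 (SD 0.10), 9.40 (SD 0.07), 9.41 (SD 0.06), 9.43 (SD 0.16) and 9.23 (SD 0.11). For Tlr7 they were 7.66 (SD 0.09), 7.49 (SD 0.13), 7.66 (SD 0.11), 7.58 (SD 0.18) and 7.35 (SD 0.23) in NTC and 7.98 (SD 0.18), 7.85 (SD 0.22), 8.09 (SD 0.08), 7.67 (SD 0.60) and 6.98 (SD 0.39) in the knockout. Tlr1 had means of 1.70 (SD 0.15), 0.84 (SD 0.85), 2.27 (SD 0.54), 2.14 (SD 0.34) and 1.31 (SD 0.36) in NTC and -0.19 (SD 2.25), -0.50 (SD 2.12), 0.49 (SD 1.03), 2.14 (SD 0.21) and 1.93 (SD 0.11) in the knockout. For Tlr3 they were 2.83 (SD 0.39), 3.02 (SD 0.83), 3.23 (SD 0.22), 3.02 (SD 0.97) and 3.12 (SD 0.55) in NTC and 3.64 (SD 0.12), 3.34 (SD 0.71), 3.08 (SD 0.66), 2.88 (SD 2.13) and 2.47 (SD 1.01) in the knockout. Neighbours in the order of the 10 groups overlapped throughout for Tlr1, Tlr3 and Tlr7, while the knockout at 10 uM stood alone as the lowest group for Tlr4, Tlr9 and Tlr13.

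**Figure D4:**
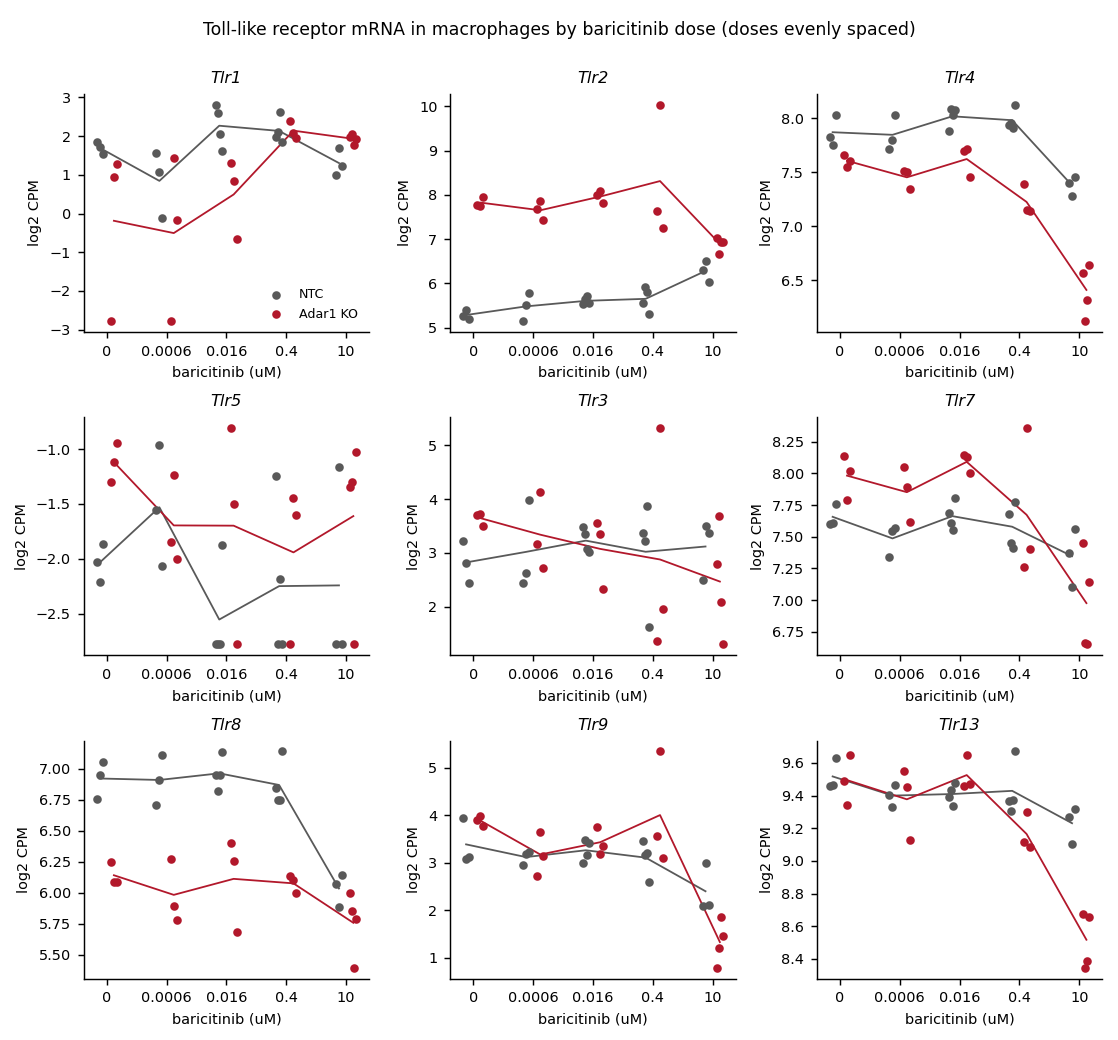
Levels of the 9 receptors (log2 CPM, vertical axis) in NTC and Adar1 KO macrophages by baricitinib dose (uM, evenly spaced on the horizontal axis), with points for libraries and lines through the group means. Tlr2 in the knockout is above NTC at every dose, and Tlr4, Tlr9 and Tlr13 in the knockout are lowest at 10 uM.

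**Figure D5:**
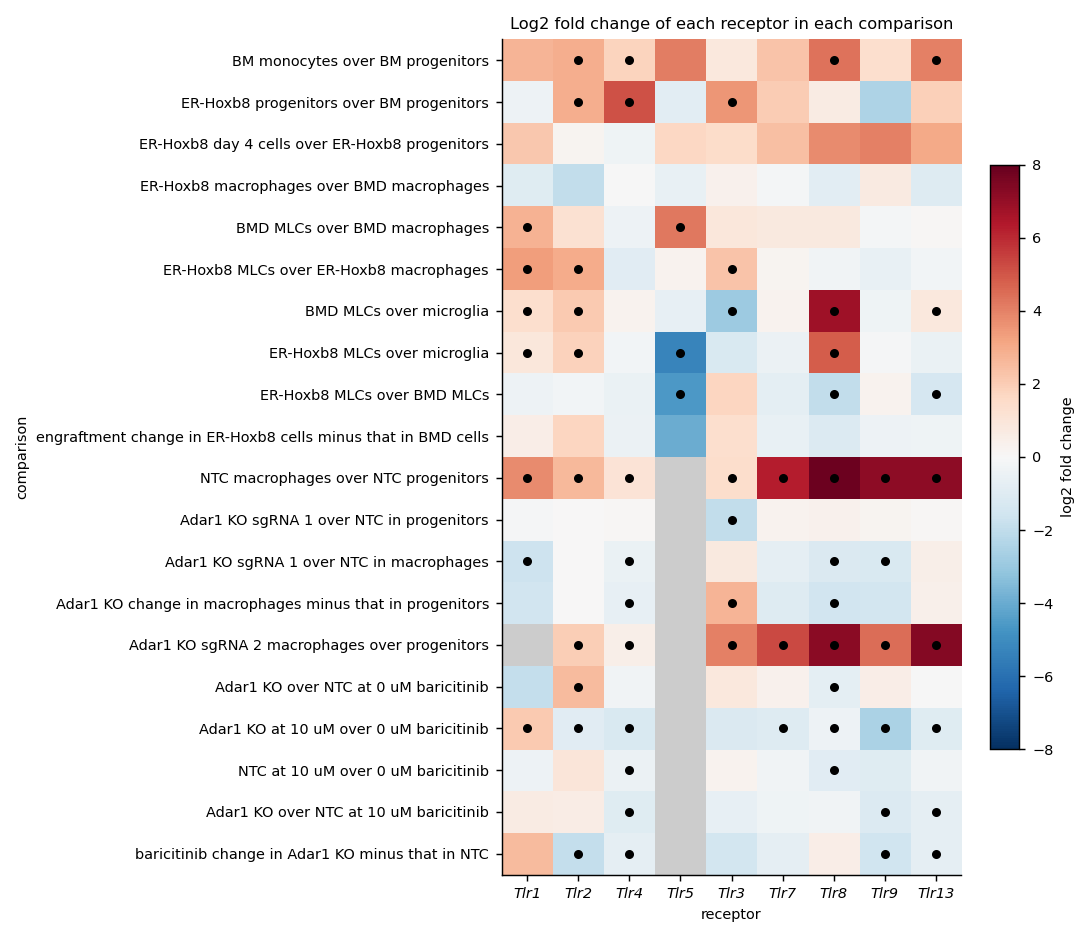
Log2 fold change of each receptor (columns) in each of 20 comparisons (rows), coloured from -8 to 8, with a dot where the adjusted p passed and grey where the receptor was not tested. The highest fitted value is that of Tlr8 (7.83) in NTC macrophages over progenitors, and the lowest that of Tlr5 (-5.26) in ER-Hoxb8 MLCs over microglia. That Tlr5 value depends on libraries at or below 3 counts, and the rise of Tlr9 in the NTC cells is a lower bound.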

How the data were processed

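RNA was sequenced in 92 mouse libraries. The authors pseudoaligned reads with kallisto 0.46.0 (GRCm39), summed them to genes and deposited TMM-normalized CPM as log2 values. CPM was recovered by subtracting each set's lowest value on the linear scale. Depth was read from the smallest steps between values; the floor is 3 counts per library. Libraries sharing one lowest value form a set, and comparisons stay within a set. limma 3.58.1 (R 4.3.3) fitted a mean per group in each set (eBayes with trend) to genes that exceed a CPM of 1 in 3 or more libraries (6 in the brain set). P values (two-sided) were adjusted by Benjamini-Hochberg over all genes tested, for each comparison separately, and a gene passes below 0.05. CPM folds are ratios of mean CPM. Tables and figures used Python 3.11.15, numpy 2.4.6, pandas 2.3.3, scipy 1.17.1 and matplotlib 3.10.9.

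All 9 receptors are named by rule. Of the pathway, interferon and marker lists, up to 5 genes a list are named, those with the largest change among passing genes whose groups do not overlap, with Myd88, Ticam1, Unc93b1, Cd14, Ly96, Isg15, Ifit1 and Csf1r where a comparison turns on them. Which of these are printed was chosen after their values were seen. Tlr6, Tlr11 and Tlr12 are named as family genes, and 3 genes per receptor by the highest Pearson r. The members and lists were chosen with earlier results of these data known. Alternatives were log2(CPM + 1), no filter, a log2 fold change of at least 2 added, only the groups compared, a replicate block, each library left out, the GFPHox or WTHox libraries alone and no YSWT libraries. Equal replicate numbers went with correlated residuals in the step to day 4 (r 0.226 to 0.427, 3 pairs) and in the sgRNA 1 against NTC progenitors (0.158 to 0.349, 3 pairs) and macrophages (0.153 and 0.158, 2 pairs), and not in every pair of another comparison. Promoters are RefSeq windows of build GRCm38.p6. Summed levels of the microglia list and of the interferon list in the brain libraries are not reported here.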

Additional observations from a re-analysis of the deposited data

Results flagged for a closer look

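A single library lay far from the rest of its group in 7 of 63 gene and group pairs examined, over the 7 groups of 4 to 10 libraries; chance alone marks about 1 in 20. In the BMD MLCs, replicate 3 read 7.30 log2 CPM for Tlr2 (others 8.06 to 8.43) and 6.30 for Tlr4 (others 6.98 to 7.27), and replicate 1 read 9.40 for Tlr7 (others 8.08 to 8.26). Microglia replicate 8 read -3.62 for Tlr8 (others -0.48 to 2.01) and 7.75 for Tlr13 (others 8.69 to 9.24), and it held the highest neuron, astrocyte and oligodendrocyte marker sums of its group (39.8, 339 and 677 CPM). Tlr5 read -1.01 in Adar1 KO sgRNA 2 macrophages replicate 3 (others -3.14 to -2.83) and -1.87 in NTC 0.016 uM replicate 4 (others -2.78), levels of a few counts.

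A difference between groups in the size of a change passed its own test for the knockout in macrophages against progenitors, at 2.75 for Tlr3, -1.52 for Tlr8 and -0.64 for Tlr4 on the log2 scale. For baricitinib in Adar1 KO against NTC it passed at -1.93 for Tlr2, -1.57 for Tlr9, -0.70 for Tlr4 and -0.69 for Tlr13.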

How the results depend on the processing

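Of 82 receptor results with an adjusted p below 0.1, 65 passed, and 48 of these kept the call in every fit with 1 library left out (72 libraries); 0 reversed under any setting run. Counted over each pair of a result and a left-out library, the call was kept in 509 cases and ended in 50. In 16 such cases a result passed that had not. With log2(CPM + 1), 64 of 65 calls held and 9 more passed. With a replicate block 65 of 65 held and 4 more passed (Tlr5 in the monocytes, Tlr7 for the knockout in macrophages, for its difference between stages and for the baricitinib difference). Tlr13 in ER-Hoxb8 MLCs over microglia passed as well, and no other call changed. With only the groups compared 51 held, 1 ended and 7 more passed. With no filter 50 held and 15 ended, where both the fit and the adjustment hold more genes. Without the YSWT libraries 9 of 9 held, and Tlr13 passed in ER-Hoxb8 MLCs over microglia. The GFPHox libraries alone kept 9 of 10 and the WTHox libraries alone 7 of 10. The number of receptors that passed moved by over 1.5 times as follows; the cause was not tested unless stated. With no filter it was 1 for BM monocytes over BM progenitors, 1 for the knockout in macrophages, 1 for its difference between stages and 4 for the knockout at 10 over 0 uM. With only the groups compared it was 7 for the monocytes, 5 for BMD MLCs over BMD macrophages and 4 for NTC at 10 over 0 uM. With log2(CPM + 1) it was 5 for the difference between stages. With a log2 fold change of at least 2 required it was 3, 2 and 1 for BMD MLCs over microglia, ER-Hoxb8 MLCs over microglia and ER-Hoxb8 over BMD MLCs, 0, 0 and 1 for the knockout in progenitors, in macrophages and its difference, and 1, 2, 0, 0 and 0 for the baricitinib comparisons in the order reported, a stricter threshold by construction (32 of 65 held). With 1 library left out the number ran from 1 to 7 for the monocytes, 2 to 5 for ER-Hoxb8 over BM progenitors, 0 to 5 for day 4 cells, 0 to 1 for ER-Hoxb8 over BMD macrophages, 0 to 1 for the difference in engraftment change, 1 to 4 for the knockout in macrophages, 1 to 4 for its difference between stages, 2 to 4 for NTC at 10 over 0 uM and 2 to 5 for the knockout over NTC at 10 uM. The fits that left out ER-Hoxb8 progenitors replicate 2 (monocytes), ER-Hoxb8 macrophages replicate 3 (brain cells) and Adar1 KO 0.4 uM replicate 2 (baricitinib) as libraries outside a comparison were chosen after seeing the data; they kept 36 calls, ended 0 and let 5 more pass. Leaving out 1 of the 2 NTC macrophage libraries leaves 1, assumed to vary like the other groups. Depth limits what can be said of Tlr5, which was near 3 counts per library in the Adar1 KO and NTC sets.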

Other observations

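NTC macrophages replicate 2 (depth 19.96 M counts) shares its lowest value with no other library and belongs to no comparison. Its receptors read 2.76 for Tlr1, 7.33 for Tlr2, 8.24 for Tlr4, -1.34 for Tlr5, 1.55 for Tlr3, 8.64 for Tlr7, 7.61 for Tlr8, 4.72 for Tlr9 and 9.17 log2 CPM for Tlr13.

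Among the family genes outside the 9, Tlr6 was above 3 counts in every library, from 0.83 to 6.94 log2 CPM in the cultured macrophages, MLCs and microglia. Tlr12 read -2.86 to 5.56 in the microglia and -0.80 to 5.43 in the ER-Hoxb8 MLCs, and was at or below 3 counts in all Adar1 KO and NTC libraries. Tlr11 was at its lowest value in all 9 microglia libraries and reached 3.72 in 1 ER-Hoxb8 MLC library.

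The remaining marker lists stood as follows. B cell markers summed to 128 to 849 CPM in the BM progenitors and at most 175 CPM in the ER-Hoxb8 MLCs, and plasmacytoid dendritic cell markers to 131 to 332 CPM in the BM progenitors and 1501 to 2370 CPM in the microglia, where Siglech, shared with the microglia list, was the most abundant. Conventional dendritic cell markers reached 165 CPM in the BMD MLCs and 195 CPM in the ER-Hoxb8 MLCs. Neuron, astrocyte and oligodendrocyte markers reached 39.8, 339 and 677 CPM in microglia replicate 8 and at most 3.36, 7.14 and 82.9 CPM in the other 8 microglia libraries, endothelial markers 107 CPM in the ER-Hoxb8 MLCs and 239 CPM in Adar1 KO macrophages at 0.4 uM, and dissociation genes 57.5 to 2014 CPM in the BM monocytes.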
